A study of Mus musculus with 12 samples.

Results

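The immediate early transcription factors Egr1, Egr2, Egr3, Fos, Fosb, Junb, Atf3, Nr4a1, Klf4 and Ier2 were read in RNA from isolated mouse heart muscle cells. They are 10 of the 22584 genes in the counts table, and all 10 were found and passed the filter on low counts. They were picked by name as stress-induced and dissociation-induced factors, and Egr3 was picked for its small p between the CKD saline and sham saline groups of these same libraries. Values of that comparison are therefore descriptions without a test. Egr3 was tested only between groups other than those, though the fit still took its estimate of spread from all libraries.

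All 12 libraries were poly(A) RNA of cardiomyocytes from hearts of wild-type C57BL6 mice, in 4 groups of 3. In the CKD JV001 group, mice with 1 kidney removed received AngII (angiotensin II, a peptide that constricts vessels) and a high salt diet over 12 weeks, and were injected with JV001. The CKD saline group had the same 3 insults and saline injections, and no duration is given for it. The sham JV001 and sham saline groups had a sham operation over 12 weeks, with injections of JV001 or of saline. JV001 is known here only by that code name, and CKD (chronic kidney disease) is the submitters' name for the model. Nothing in the labels says that the 3 libraries of a group came from separate animals, so p-values measure only the spread between libraries, which may be technical.

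Immediate early genes are transcribed within minutes of a stimulus, before any new protein is made. Kinase cascades that end on factors already bound to the promoter, such as SRF with its ternary complex partners at CArG boxes and CREB at cyclic AMP response elements (CRE), switch them on, and their short-lived mRNAs are soon removed. In the heart, AngII, adrenergic agonists and stretch are classical inducers, and the enzymes and warmth used to free cells from tissue induce the same genes, so their mRNA in isolated cells can hold both a state of the tissue and a response to isolation.

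Promoter stretches are shown for 5 members as examples of stretches with a CRE half-site, which the Fosb stretch, not shown, also holds. Of the 10 members, 7 were matched in the RefSeq promoter table (build GRCm38.p6), and Egr1, Egr3 and Ier2 were not matched. The build of the deposited counts is GRCm39, so the positions are those of the table. Each stretch holds the 120 bases before an annotated start, 5′ to 3′ on the gene's strand. Egr2 has several starts in the table, and the start with the most CRE half-site and CArG box matches is shown (the first listed on a tie). They lie at chr10:67537749-67537868 on the plus strand for Egr2, chr12:85473770-85473889 on the plus strand for Fos and chr8:84978749-84978868 on the minus strand for Junb. Those of Atf3 and Nr4a1 lie at chr1:191183334-191183453 on the minus strand and chr15:101266726-101266845 on the plus strand. In the GENCODE M21 annotation the Fos and Junb stretches lie in no gene. The Egr2 and Nr4a1 stretches lie within introns of longer transcripts of the same gene, and the Atf3 stretch within a longer transcript, with 7 bases in an exon. Capitals mark CRE half-sites (TGACG, or CGTCA on the other strand) and, in Egr2, the CArG box.
Egr2: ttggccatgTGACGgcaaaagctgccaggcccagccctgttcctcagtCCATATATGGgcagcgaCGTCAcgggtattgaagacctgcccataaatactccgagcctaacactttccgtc
Fos: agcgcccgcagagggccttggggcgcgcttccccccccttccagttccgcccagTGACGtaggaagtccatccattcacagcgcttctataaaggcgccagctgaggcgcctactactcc
Junb: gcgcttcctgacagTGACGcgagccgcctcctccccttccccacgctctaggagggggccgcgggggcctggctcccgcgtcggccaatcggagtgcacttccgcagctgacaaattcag
Atf3: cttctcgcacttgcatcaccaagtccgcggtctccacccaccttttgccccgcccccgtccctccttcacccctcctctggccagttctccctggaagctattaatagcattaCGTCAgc
Nr4a1: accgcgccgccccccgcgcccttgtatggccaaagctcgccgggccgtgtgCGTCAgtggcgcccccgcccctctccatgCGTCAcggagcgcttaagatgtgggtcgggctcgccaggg

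A CRE half-site was found in the 250 bases before the start of 7 of the 7 matched members (Egr2, Fos, Fosb, Junb, Atf3, Nr4a1 and Klf4), on either strand, against 17.8% of 32851 promoter windows of that length. Egr2, the only one of them with several starts, was counted if any start had a match, whereas the share is over single windows. The nearest match ended 3 bases before the start in Atf3, 62 bases before it in Fos and 228 bases before it in Klf4. The full element TGACGTCA was found in 0 of these 7 members, against 1.55% of windows. A CArG box was found in Egr2 alone of the 7, at 72 to 63 bases before the start shown, against 1.47% of windows. The window of an Egr2 start further upstream held another CArG box, CCTTTTTTGG, and no CRE half-site. Sequence beyond these 250 bases was not searched, so elements further upstream, in Fos or any other member, would be missed. The AP-1 element TGANTCA, the site of Fos and Jun dimers, was in 0 of the 7 members and 6.75% of windows. The site of Egr proteins, GCGNGGGCG, was in 3 of the 7 (Fosb, Nr4a1 and Klf4) and 4.7% of windows. In the Nr4a1 stretch an Egr site lies between its marked half-sites. These matches describe the letters of the windows and are not shown to be bound.

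The libraries held 25.2 to 37.0 counted reads in units of 1e6, and expression is given in CPM (counts per 1e6 counts, with TMM scaling between libraries). All 12 ventricular cardiomyocyte markers were above 0 in every library, as were all 10 markers of fibroblasts, of endothelial cells and of macrophages. The summed ventricular markers ran from 28843 to 63681 CPM in CKD JV001, 57538 to 103678 CPM in CKD saline, 93131 to 100385 CPM in sham JV001 and 85462 to 115511 CPM in sham saline. In both CKD groups library 3 had the lowest ventricular sum and the highest fibroblast, endothelial and macrophage sums. CKD saline libraries 1 and 2 were the closest pair of one group in their counts, though further apart than sampling noise. In bulk RNA, fewer cells of a type and less RNA per cell cannot be told apart.

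**Figure D1:**
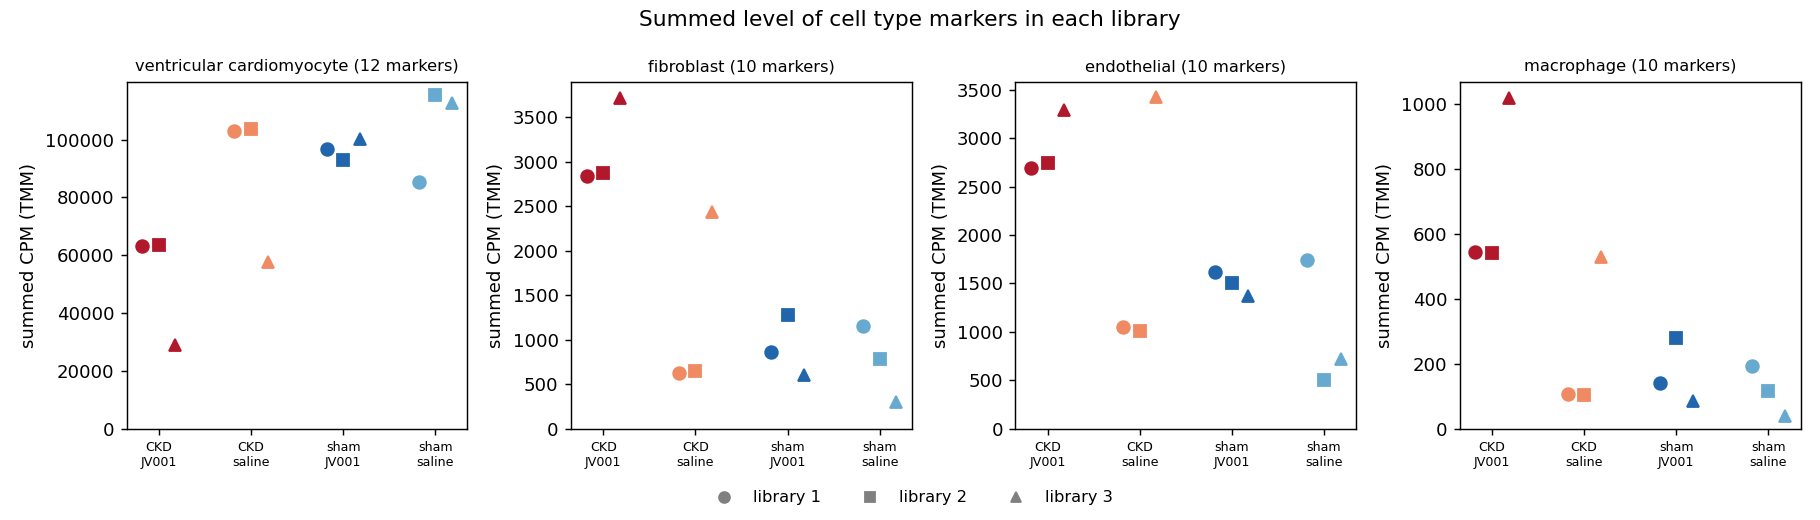
Summed CPM of ventricular cardiomyocyte, fibroblast, endothelial and macrophage markers in each of the 12 libraries, by group, with the marker shape giving the library number. CKD saline library 3 had an endothelial sum of 3432 CPM, against 1051 and 1011 CPM in the other CKD saline libraries, and the lowest ventricular sum of all was in CKD JV001 library 3.

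The members spanned a wide range of abundance. Per gene length, in the authors' FPKM, Fos averaged 207 ± 71.7 (SD, n = 12 libraries) and ranked 237 of 22584 genes. Egr1 followed with 179 ± 58.0 FPKM, Junb with 143 ± 76.0, Atf3 with 101 ± 42.9 and Ier2 with 88.0 ± 33.5 FPKM. Nr4a1 had 57.1 ± 14.2, Fosb 29.8 ± 22.6 and Klf4 13.9 ± 6.77 FPKM. Egr3, at 1.58 ± 1.34 FPKM, and Egr2, at 0.441 ± 0.350 FPKM, ranked 9144 and 11833. Only Klf4 above Egr3 and Egr3 above Egr2 held in 12 of 12 libraries among neighbours in this order. Fos exceeded Egr1, Junb exceeded Atf3 and Atf3 exceeded Ier2 in 8 of 12 libraries each, so those neighbours did not differ beyond their spread.

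Libraries of one group differed widely in these genes. The SD of log2 CPM within groups was largest for Fosb (1.05) and Egr2 (0.97) and smallest for Egr1 (0.38). Over all 15004 tested genes the median within-group SD was 0.40, and 8 of the 10 members lay above it, while Egr1 and Nr4a1 lay below it. Over the 7883 tested genes with at least 10 CPM on average, a class that Egr2 and Egr3 do not belong to, the median was 0.28, below the SD of all 10 members. Over the 12 libraries the highest value exceeded the lowest 22.2-fold for Egr2, 15.2-fold for Fosb, 12.9-fold for Egr3 and 2.76-fold for Fos.

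Within a group the members tended to be high or low in the same library. In sham JV001, library 1 was highest for 9 of 10 members (Egr3 was highest in library 2) and library 3 was lowest for all 10. Among sham saline libraries, library 2 was highest for 9 members (Klf4 was highest in library 1) and library 3 lowest for 8. In CKD saline, library 3 was highest for 8 members and lowest for Atf3. CKD JV001 library 3 split the members: it was highest for Egr1, Egr2, Junb and Ier2 and lowest for Egr3, Fos, Fosb, Atf3, Nr4a1 and Klf4. Sham JV001 library 3 also had the lowest fibroblast, endothelial and macrophage sums of its group, at 606, 1370 and 84.0 CPM. Sham saline library 3 had the lowest fibroblast and macrophage sums of its group, at 304 and 39.4 CPM. Sham saline library 2 had the lowest endothelial sum of that group, at 497 CPM. The part of cell composition and of cell isolation in this spread was not tested.

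**Figure D2:**
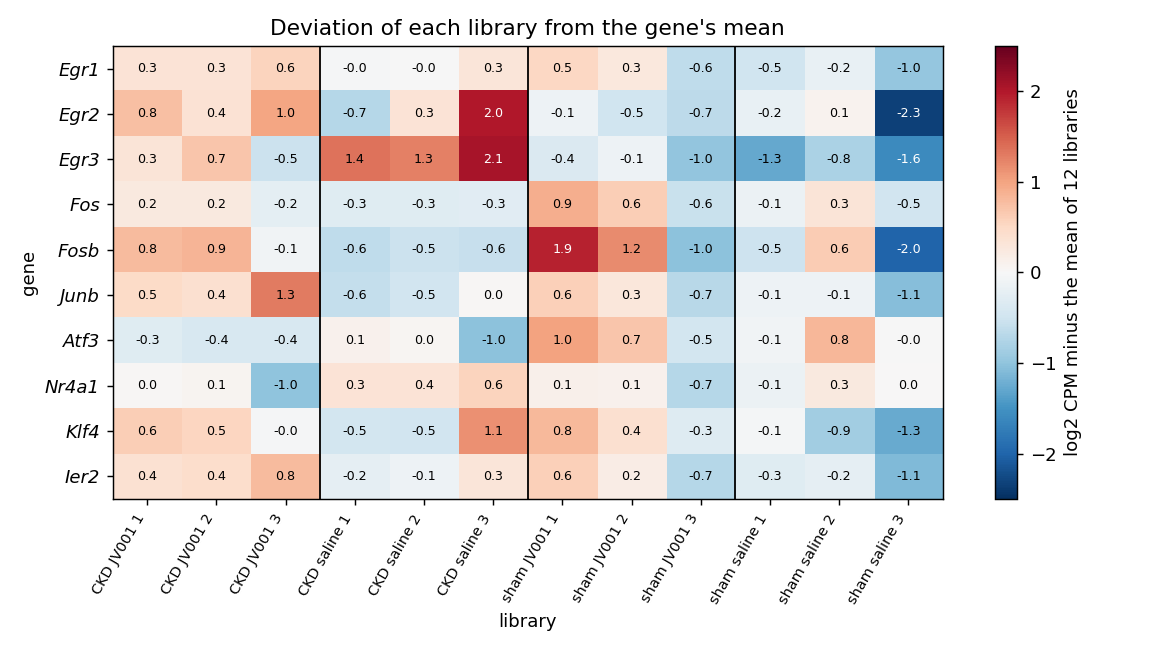
Log2 CPM of each member (rows) in each library (columns) minus the gene's mean over the 12 libraries, in colour and as a number, with lines between groups. Sham JV001 library 3 and sham saline library 3 are low for most members, and Egr3 is high in all 3 CKD saline libraries.

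The Egr genes encode zinc finger factors that bind the same GC-rich site and induce their own corepressors, the Nab proteins. Egr3, studied mainly in muscle spindles, neurons and lymphocytes, had 6.14, 7.90 and 3.35 CPM in CKD JV001 libraries 1 to 3, 12.6, 11.8 and 20.5 CPM in CKD saline, 3.77, 4.49 and 2.42 CPM in sham JV001, and 1.99, 2.78 and 1.58 CPM in sham saline. These values rest on 114 to 298 reads per library in CKD JV001, 341 to 515 in CKD saline, 80 to 160 in sham JV001 and 61 to 105 in sham saline. The 3 CKD saline libraries lay above the other 9, and CKD JV001 and sham JV001 overlapped.

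Described without a test, the Egr3 log2 fold change in CKD saline against sham saline was 2.82 (SE 0.39), and it ran from 2.55 to 3.08 when single libraries were left out. The fold change of CKD JV001 against CKD saline was -1.37 on the log2 scale. That value was -0.83 with library 3 of both CKD groups left out. In sham JV001 against sham saline it was 0.75, and the difference between the JV001 fold changes in CKD and in sham mice was -2.12. These comparisons use libraries by which Egr3 was chosen. In CKD JV001 against sham JV001, whose groups hold none of them, the group means were 5.80 ± 2.30 and 3.56 ± 1.05 CPM (SD, n = 3 each). The estimate of spread was shared over all libraries, so the SE and p of that comparison are not free of them. The log2 fold change there was 0.70 (SE 0.37, 95% interval -0.11 to 1.51), and it did not pass edgeR's quasi-likelihood test (adjusted p = 0.228). It ran from 0.41 without CKD JV001 library 2 to 0.98 without CKD JV001 library 3, and was 0.97 (adjusted p = 0.064) with library 3 of both CKD groups left out.

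Egr1, the most abundant Egr gene and a standard marker of MAPK activation, had 662, 658 and 772 CPM in CKD JV001, 511, 519.8 and 639 CPM in CKD saline, 751, 629.9 and 334 CPM in sham JV001, and 368, 459 and 265 CPM in sham saline. CKD JV001 lay above CKD saline in all libraries, and CKD saline above sham saline, while sham JV001 spanned nearly the whole range. On the log2 scale the fold change was 0.32 in CKD JV001 against CKD saline (SE 0.28, edgeR adjusted p = 0.470), 0.29 in CKD JV001 against sham JV001 (adjusted p = 0.502) and 0.65 in sham JV001 against sham saline (SE 0.29, adjusted p = 0.9997). None of these passed. The Egr3 level per gene length, as a percent of that of Egr1 in the same library, was 0.322 to 0.893% in CKD JV001, 1.69 to 2.38% in CKD saline, 0.373 to 0.539% in sham JV001 and 0.402 to 0.451% in sham saline. Relative to Egr1 the 3 CKD saline libraries lay above the other 9. This ratio holds the same Egr3 values by which Egr3 was chosen, so it is a description only.

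Egr2, known for its part in myelination and in T cells, was the least abundant member. It had 5.32, 4.03 and 6.22 CPM in CKD JV001, 1.89, 3.96 and 12.6 CPM in CKD saline, 2.88, 2.19 and 1.97 CPM in sham JV001, and 2.73, 3.34 and 0.570 CPM in sham saline. The lowest value rests on 22 reads and the highest on 318. CKD JV001 lay above sham JV001 in all libraries, with a log2 fold change of 1.15 (SE 0.68) that did not pass (edgeR adjusted p = 0.276). CKD saline library 3 lay far above the other CKD saline libraries, and the log2 fold change of CKD JV001 against CKD saline was -0.25 with it and 0.82 without it.

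**Figure D3:**
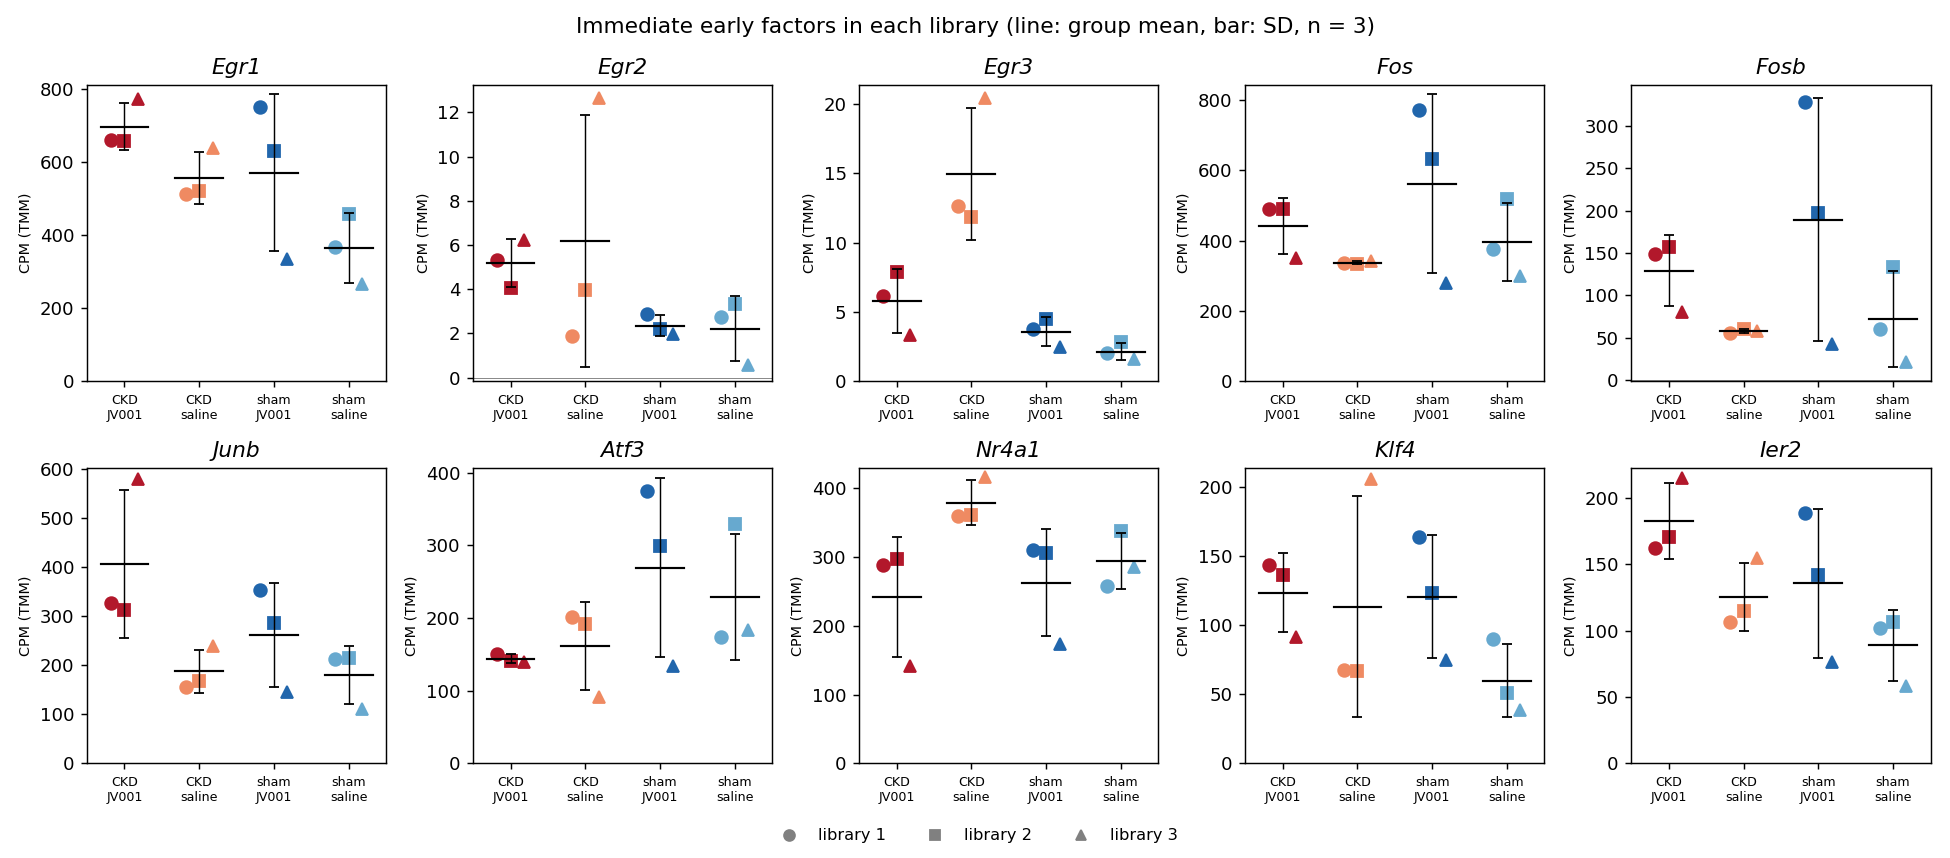
CPM of each member in the 12 libraries, by group, with the group mean as a line and the SD as a bar (n = 3), on axes that differ between genes. Egr3 is highest in CKD saline, Junb highest in CKD JV001, and Fosb spreads from 42.6 to 328 CPM within sham JV001.

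Fos, Fosb and Junb encode partners of the AP-1 dimer, in which a Fos protein must pair with a Jun protein to bind DNA. Fos, the prototype immediate early gene, had 489, 489 and 351 CPM in CKD JV001, 335, 333 and 341 CPM in CKD saline, 774, 634 and 280 CPM in sham JV001, and 376, 517 and 298 CPM in sham saline. CKD JV001 lay just above CKD saline, whose 3 libraries differed by 4.28 CPM (SD), whereas the sham groups overlapped each other and both CKD groups. Its log2 fold change was 0.40 (SE 0.33, edgeR adjusted p = 0.447) in CKD JV001 against CKD saline and -0.35 (SE 0.33, adjusted p = 0.483) in CKD JV001 against sham JV001.

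Fosb, known for a truncated and long-lived isoform of its protein, had 149, 157 and 80.9 CPM in CKD JV001, 55.7, 59.8 and 57.8 CPM in CKD saline, 328, 198 and 42.6 CPM in sham JV001, and 60.5, 134 and 21.6 CPM in sham saline. All 3 CKD JV001 libraries were above all 3 CKD saline libraries, and sham JV001 held both the highest value and one of the lowest. Its log2 fold change was 1.16 (SE 0.68, 95% interval -0.34 to 2.65) in CKD JV001 against CKD saline and did not pass over the 12 libraries (edgeR adjusted p = 0.320). In CKD JV001 against sham JV001 it was -0.56 (SE 0.67, adjusted p = 0.588), and 0.09 without sham JV001 library 1. In sham JV001 against sham saline it was 1.40 (SE 0.68, adjusted p = 0.9997). Fosb per gene length was 12.9 to 17.9% of Fos in CKD JV001, 9.29 to 10.02% in CKD saline, 8.496 to 23.7% in sham JV001 and 4.04 to 14.4% in sham saline.

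Junb, a Jun protein that often restrains c-Jun, had 327, 312 and 579.6 CPM in CKD JV001, 156, 168 and 238 CPM in CKD saline, 354, 286 and 146 CPM in sham JV001, and 214, 215 and 112 CPM in sham saline. CKD JV001 lay above CKD saline and sham saline in all libraries and overlapped sham JV001. The log2 fold change of CKD JV001 against CKD saline was 1.11 (SE 0.37, 95% interval 0.29 to 1.94), with an unadjusted p of 0.012 and an edgeR adjusted p of 0.276 over all genes. It was 1.32 (adjusted p = 0.0498) without CKD saline library 3, a fit in which 21.3% of all genes passed. In CKD JV001 against sham JV001 it was 0.63 (SE 0.37, adjusted p = 0.272), and 0.29 without CKD JV001 library 3. Relative to Fos, Junb per gene length was 76.7, 73.2 and 189% in CKD JV001 libraries 1 to 3, 53.5, 57.9 and 80.0% in CKD saline, 52.5, 51.8 and 59.7% in sham JV001, and 65.2, 47.7 and 43.0% in sham saline. CKD JV001 library 3 alone held more Junb than Fos, and its neutrophil marker sum was 317 CPM, against 16.4 and 15.8 CPM in the other CKD JV001 libraries. Also highest of the group in that library were the fibroblast (3724 CPM), endothelial (3291 CPM), macrophage (1016 CPM), smooth muscle and pericyte (2428 CPM) and erythroid (333 CPM) sums. The part of these cells in its Junb level was not tested.

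Atf3, a stress-induced factor of the ATF/CREB family that mostly represses transcription, had 151, 142 and 139.9 CPM in CKD JV001, 201, 192 and 91.6 CPM in CKD saline, 374, 299 and 134 CPM in sham JV001, and 174, 329.6 and 184 CPM in sham saline. The highest values were in sham libraries, and sham JV001 overlapped CKD JV001 through its library 3. Against sham JV001, the log2 fold change of CKD JV001 was -0.90 (SE 0.39, 95% interval -1.77 to -0.04), with an unadjusted p of 0.042 and an edgeR adjusted p of 0.170.

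Nr4a1, an orphan nuclear receptor also called Nur77, had 288, 297 and 141 CPM in CKD JV001, 359, 361 and 416 CPM in CKD saline, 309, 305 and 174 CPM in sham JV001, and 257, 337 and 286 CPM in sham saline. The CKD saline libraries were the 3 highest of the 12. Against CKD saline, the log2 fold change of CKD JV001 was -0.65 (SE 0.29, 95% interval -1.29 to -0.01), with an unadjusted p of 0.047 and an edgeR adjusted p of 0.277. It was -0.37 without CKD JV001 library 3 and -0.33 with library 3 of both CKD groups left out. Besides Egr3, Nr4a1 was the member for which all CKD JV001 libraries were below all CKD saline libraries.

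Klf4, which in vessels is a quiescence factor of endothelium and a regulator of smooth muscle, had 143, 136 and 91.1 CPM in CKD JV001, 67.6, 66.7 and 205 CPM in CKD saline, 163, 123 and 74.8 CPM in sham JV001, and 89.9, 51.0 and 39.0 CPM in sham saline. CKD saline library 3, with the highest endothelial marker sum of the 12 libraries, also had the highest Klf4, and the part of endothelial cells in that value was not tested. The log2 fold change of CKD JV001 against CKD saline was 0.13 (SE 0.47, edgeR adjusted p = 0.873), and 0.87 (adjusted p = 0.107) without that library. In sham JV001 against sham saline it was 1.01 (SE 0.47, adjusted p = 0.9997).

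Ier2, a small nuclear regulator of transcription, had 163, 170.3 and 215 CPM in CKD JV001, 106, 115 and 155 CPM in CKD saline, 188, 142 and 76.6 CPM in sham JV001, and 102, 106 and 58.3 CPM in sham saline. CKD JV001 lay above CKD saline and above sham saline without overlap. The log2 fold change of CKD JV001 against CKD saline was 0.54 (SE 0.32, edgeR adjusted p = 0.320), and that of CKD JV001 against sham JV001 was 0.43 (SE 0.32, adjusted p = 0.372).

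The question of what JV001 did in the CKD model is addressed by CKD JV001 against CKD saline. Egr1, Fos, Fosb, Junb and Ier2 were higher in all 3 CKD JV001 libraries than in all 3 CKD saline libraries, and Egr3 and Nr4a1 were lower in all 3. Of all 15004 tested genes 8.22% were higher, 6.04% lower and 14.3% in either direction without overlap. Egr3 was chosen for high values in these CKD saline libraries, so nothing is read from its lower level here, and of the other 9 members 5 were higher and 1 was lower. Over the 12 libraries edgeR called 0 of the 9 members tested, 2 of them (Junb and Nr4a1) at an unadjusted p under 0.05, and DESeq2 also called 0, with 2 at an unadjusted p under 0.05. Across all genes 0% were called by edgeR, 18% had an unadjusted p under 0.05, and 0.277% were called by DESeq2.

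Same-numbered libraries of the CKD groups deviated together, so this comparison was also fitted with the replicate number as a block in the 6 CKD libraries, which left 2 residual degrees of freedom. In that fit, 4 of the 9 members rose in CKD JV001: Junb by a log2 fold change of 1.09 (SE 0.12, adjusted p = 0.012), Ier2 by 0.57 (SE 0.09, adjusted p = 0.017), Fosb by 1.11 (SE 0.19, adjusted p = 0.022) and Egr1 by 0.34 (SE 0.08, adjusted p = 0.035). Fos (0.39, adjusted p = 0.066) and Nr4a1 (-0.70, adjusted p = 0.109) did not pass, nor did Egr2, Atf3 and Klf4. Of all genes in that fit 10.4% passed as higher and 19.9% in either direction. In both CKD groups libraries 1 and 2 differed far less than either did from library 3: the chi-square per degree of freedom over genes was 23.3 against 308 and 356 in CKD JV001, and 8.31 against 197 and 194 in CKD saline. The 3 blocks may therefore not be 3 independent pairs. Shared deviations of this kind cannot show that number 1 pairs with 1 or 2 with 2. With the first and second libraries summed in each CKD group, and with the block over all 12 libraries, 0 members passed.

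Cell type markers were read in this comparison too, where edgeR called 0 of them and DESeq2 called only Fgf12, an atrial marker. Of all genes 51.4% had a positive log2 fold change. Of the ventricular markers 0 of 12 had a positive log2 fold change in CKD JV001 against CKD saline (median -0.74), whereas 10 of 10 fibroblast markers (median 1.38), 10 of 10 macrophage markers (median 1.49), 9 of 10 endothelial markers (median 0.66), 8 of 9 smooth muscle and pericyte markers (median 1.09), 7 of 7 neutrophil markers tested (median 2.09), 6 of 6 T and NK cell markers tested (median 0.99) and 8 of 8 atrial cardiomyocyte markers (median 1.87) did. Of the erythroid markers 0 of 5 were positive (median -0.28). The summed atrial markers ran from 704 to 1062 CPM in CKD JV001 and from 208 to 325 CPM in CKD saline. The fibroblast sums ran from 2844 to 3724 CPM in CKD JV001 and from 620.02 to 2433 CPM in CKD saline. The part of these cells in the member values was not tested.

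**Figure D4:**
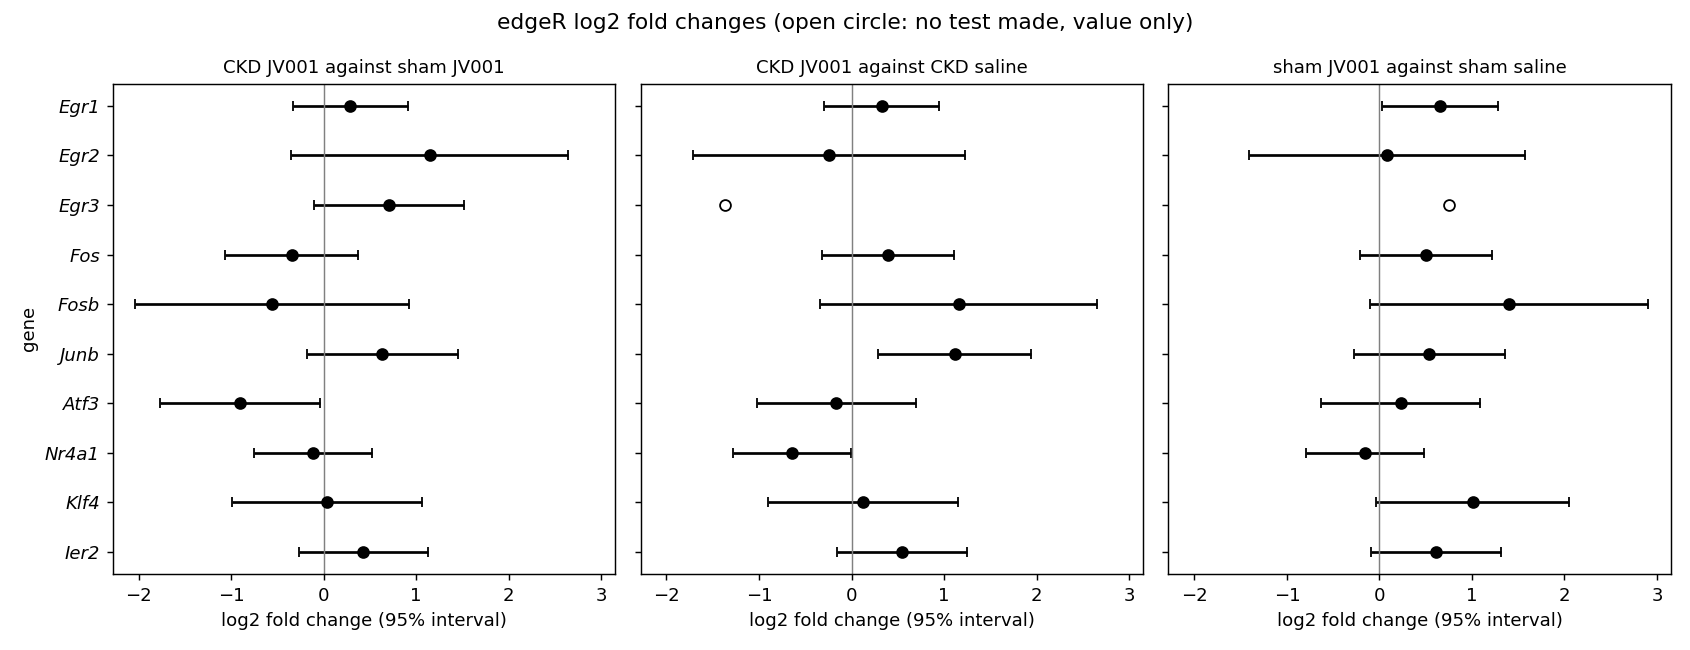
EdgeR log2 fold changes of the 10 members in the 3 comparisons made with JV001, with 95% intervals, and open circles for Egr3 where no test was made. In CKD JV001 against CKD saline the intervals of Junb (0.29 to 1.94) and Nr4a1 (-1.29 to -0.01) leave out 0 before adjustment over all genes.

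The model under JV001 was read from CKD JV001 against sham JV001. Of the 10 members 6 had positive and 4 negative log2 fold changes, from -0.90 for Atf3 to 1.15 for Egr2, with a median of 0.16 beside 0.02 over all genes. EdgeR called 0 of 10, with 1 (Atf3) at an unadjusted p under 0.05, and DESeq2 also called 0, with 1 at an unadjusted p under 0.05. Of all genes 0.02% passed with edgeR, 27.5% had an unadjusted p under 0.05 and 12.6% passed with DESeq2. Egr2 was the only member without overlap between these groups, where 22.9% of all genes were higher and 20.1% lower without overlap. Of all genes 51.1% had a positive log2 fold change here. In the marker lists, 0 of 12 ventricular (median -0.77) and 0 of 8 atrial (median -1.19) markers had a positive log2 fold change, and 10 of 10 fibroblast (median 1.65), macrophage (median 2.03) and endothelial (median 1.04) markers did. So did 8 of 9 smooth muscle and pericyte markers (median 1.19), 7 of 7 neutrophil markers (median 5.89), 6 of 6 T and NK cell markers (median 2.36) and 5 of 5 erythroid markers (median 2.92). The neutrophil sums were 16.4, 15.8 and 317 CPM in CKD JV001 libraries 1 to 3, against only 1.21 to 6.36 CPM in sham JV001. EdgeR called 0 of the markers in these lists. DESeq2 called 8 fibroblast, 7 macrophage, 4 ventricular, 3 smooth muscle and pericyte and 1 endothelial markers. The part of these cells in the member values was not tested.

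JV001 without the CKD insults was read from sham JV001 against sham saline. The log2 fold changes were positive for 9 of 10 members, with a median of 0.57 beside -0.01 over all genes, and only that of Nr4a1 was negative (-0.16). That count and median include Egr3 (0.75), which was chosen through the same sham saline libraries, so nothing is read from its sign. EdgeR called 0 of the 9 members tested, with 1 (Egr1) at an unadjusted p under 0.05, and DESeq2 called 0, with 3 at an unadjusted p under 0.05. The groups overlapped for all 10 members. Of all genes 0% passed with edgeR, 2.84% had an unadjusted p under 0.05, 0.00894% passed with DESeq2, and 12.4% did not overlap (5.69% higher and 6.71% lower). Library 3, low for most members, was so in both of these groups. Of the endothelial and of the macrophage markers 10 of 10 had positive log2 fold changes (medians 0.42 and 0.75), as did 9 of 10 fibroblast markers (median 0.30) and 1 of 12 ventricular markers (median -0.10). Positive values were also found for 6 of 9 smooth muscle and pericyte, 4 of 7 neutrophil, 2 of 8 atrial, 2 of 6 T and NK cell and 0 of 5 erythroid markers (medians 0.18, 0.45, -0.14, -0.70 and -0.26 in that order), and the part of these cells was not tested.

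The interaction asks whether the JV001 difference itself differed between CKD and sham mice. EdgeR called 0 of 9 members, with 0 at an unadjusted p under 0.05, and DESeq2 gave the same counts. Of all genes 0% passed with edgeR, and 3.78% had an unadjusted p under 0.05. The interaction term was positive for Junb (0.57, SE 0.52, adjusted p = 0.840) and negative for the other 9, among them Klf4 (-0.88, SE 0.66, adjusted p = 0.840). Egr3 (-2.12), not tested, is also among those 9, and nothing is read from its sign because of how it was chosen.

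CKD saline against sham saline, the comparison by which Egr3 was chosen, is described only. The log2 fold changes after Egr3 were 1.47 for Egr2, 0.92 for Klf4, 0.61 for Egr1, 0.50 for Ier2, 0.37 for Nr4a1, 0.06 for Junb, -0.24 for Fos, -0.32 for Fosb and -0.51 for Atf3. Without CKD saline library 3, Egr2 had 0.43 and Klf4 0.19. Without sham saline library 2, Fosb had 0.52, Fos 0.018 and Atf3 -0.13, and Junb ran from -0.17 without sham saline library 3 to 0.23 without sham saline library 2. Egr1, Egr3 and Nr4a1 were higher without overlap, as were 4.12% of all genes, with 6.44% lower and 10.6% in either direction. Unlike Egr3, Fosb had overlapping groups, with 57.7 ± 2.07 CPM in CKD saline and 71.9 ± 56.9 CPM in sham saline (SD, n = 3 each). Markers are also described without a test, and 51.4% of all genes had a positive log2 fold change. Positive log2 fold changes were found for 1 of 12 ventricular (median -0.12), 0 of 8 atrial (median -3.29), 9 of 10 fibroblast (median 0.65), 10 of 10 endothelial (median 0.88) and 10 of 10 macrophage (median 1.22) markers. Positive too were 7 of 7 neutrophil (median 3.35), 5 of 5 erythroid (median 2.97), 4 of 6 T and NK cell (median 0.93) and 5 of 9 smooth muscle and pericyte (median 0.14) markers. The neutrophil sums were 3.66, 4.82 and 81.3 CPM in CKD saline libraries 1 to 3, against 0.907 to 3.76 CPM in sham saline. The erythroid sums were 47.6, 52.9 and 664 CPM, against 10.3 to 57.2 CPM, so both medians lean on CKD saline library 3. The part of these cells was not tested.

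Other genes of the immediate early programme were read as lists chosen with earlier results of these data known. Of 20 further immediate early factors tested, edgeR and DESeq2 called 0 in each of the 3 comparisons with JV001. An unadjusted p under 0.05 in edgeR was reached by 3 in CKD JV001 against sham JV001, 5 in CKD JV001 against CKD saline and 0 in sham JV001 against sham saline. Over all genes these shares were 27.5%, 18% and 2.84% in that order. Their median log2 fold change in CKD JV001 against sham JV001 was 0.49, with 16 of 20 positive, where 51.1% of all genes were positive. In CKD JV001 against CKD saline the median was 0.52, with 17 of 20 positive, and in sham JV001 against sham saline 0.51, with 17 of 20 positive. Fosl2, another Fos partner of AP-1, had 57.8, 56.2 and 427 CPM in CKD JV001, 69.0, 72.0 and 78.1 CPM in CKD saline, 63.8, 60.005 and 36.2 CPM in sham JV001, and 75.2, 83.3 and 70.0 CPM in sham saline. Its value in CKD JV001 library 3 stood alone, and the log2 fold change of CKD JV001 against sham JV001 was 1.76 (SE 0.64, adjusted p = 0.132). Cebpd, an acute phase factor, showed the same library at 333 CPM, with 36.1 and 29.7 CPM in the others of that group. Klf2, a flow-induced factor of endothelium, had 245, 246 and 266 CPM in CKD JV001, against 145, 122 and 77.8 CPM in sham JV001 (log2 fold change 1.14, adjusted p = 0.164). Hes1, a Notch target, had a log2 fold change of 0.41 (adjusted p = 0.222).

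Among 21 negative feedback genes, which dampen MAPK signalling or remove AU-rich mRNA, the median log2 fold change of CKD JV001 against sham JV001 was 0.63, with 16 positive. EdgeR called 0 and gave 10 an unadjusted p under 0.05, and DESeq2 called 7 (Spry2, Spry4, Spred1, Spred2, Nab2, Zfp36l2 and Rgs2). Over all genes, 27.5% had an unadjusted p under 0.05 in edgeR and 12.6% passed with DESeq2. Rgs2, which curbs Gq signalling downstream of the AngII receptor, had 22.2, 22.6 and 15.5 CPM in CKD JV001, against 50.6, 54.5 and 35.1 CPM in sham JV001, with a log2 fold change of -1.22 (SE 0.21, edgeR adjusted p = 0.065). Spry4, an inhibitor of receptor tyrosine kinase signalling, had 34.4, 38.5 and 135 CPM in CKD JV001, against 20.1, 15.6 and 13.997 CPM in sham JV001 (log2 fold change 2.07, adjusted p = 0.094). Spry2 (0.59, edgeR adjusted p = 0.099) and Spred1 (1.48, edgeR adjusted p = 0.106), of the same family, did not pass with edgeR. Both were higher in all CKD JV001 libraries than in all sham JV001 libraries, as were 22.9% of all genes.

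Upstream, the 27 kinases and promoter-bound factors had a median log2 fold change of -0.02 in CKD JV001 against sham JV001, with 13 positive. EdgeR called 0 of them, with 10 at an unadjusted p under 0.05, and DESeq2 called 5 (Mapk8, Rps6ka1, Mrtfa, Camk2d and Ppp3cb). The shares over all genes were 27.5% (edgeR, unadjusted) and 12.6% (DESeq2). Mapk8, the kinase JNK1, had 15.1, 13.7 and 13.5 CPM in CKD JV001, against 17.4, 20.8 and 21.5 CPM in sham JV001 (log2 fold change -0.50, edgeR adjusted p = 0.099). Ppp3cb, a calcineurin catalytic subunit, had a log2 fold change of -0.52 (adjusted p = 0.105). Rps6ka1, the kinase RSK1 that acts below ERK, and Mrtfa, an SRF coactivator, had 1.34 and 1.15 (adjusted p = 0.108 each).

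A list of 11 genes held AngII, endothelin and adrenergic receptors and the G protein genes Gnaq and Gna11. The 9 of them found and tested had a median log2 fold change of -0.62 in CKD JV001 against sham JV001, with 4 positive. EdgeR called 0, with 6 at an unadjusted p under 0.05, and DESeq2 called 3 (Adra1a, Adra1b and Ednra). The shares over all genes were 27.5% (edgeR, unadjusted) and 12.6% (DESeq2). Ednra, an endothelin receptor, had 20.7, 20.1 and 23.0 CPM in CKD JV001, against 39.1, 40.3 and 42.8 CPM in sham JV001, with a log2 fold change of -0.94 (SE 0.16, edgeR adjusted p = 0.065). Adra1a, the alpha-1A adrenergic receptor, had 22.9, 23.9 and 10.2 CPM in CKD JV001, against 47.8, 46.0 and 49.6 CPM in sham JV001 (log2 fold change -1.33, adjusted p = 0.093). Adra1b had a log2 fold change of -0.84 (adjusted p = 0.116) and Ednrb, an endothelin receptor of endothelium, 1.22 (adjusted p = 0.159).

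Downstream, 25 immediate early effectors and delayed targets had a median log2 fold change of 0.68 in CKD JV001 against sham JV001, with 16 positive. EdgeR called 0, with 10 at an unadjusted p under 0.05, and DESeq2 called 2 (Plaur and Sik1). The shares over all genes were 27.5% (edgeR, unadjusted) and 12.6% (DESeq2). Sik1, a CREB-induced kinase, had 111, 115 and 264 CPM in CKD JV001, against 111, 74.1 and 59.1 CPM in sham JV001 (log2 fold change 1.00, edgeR adjusted p = 0.115). The NF-kappaB feedback genes Tnfaip3 (3.13, adjusted p = 0.134) and Nfkbia (2.14, adjusted p = 0.136) and the urokinase receptor Plaur (2.40, adjusted p = 0.135) were each highest in CKD JV001 library 3. Tnfaip3 had 287 CPM there, against 16.0 and 21.2 CPM in the other CKD JV001 libraries.

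Heat shock genes, which isolation of cells also induces, had a median of 0.28 over 14 members, with 9 positive, and edgeR and DESeq2 each called 0 and gave 1 an unadjusted p under 0.05. In edgeR, 27.5% of all genes had such an unadjusted p. Hspa1b, an inducible Hsp70, had 58.1, 54.0 and 923 CPM in CKD JV001, 7.85, 7.29 and 155 CPM in CKD saline, 93.7, 77.0 and 40.6 CPM in sham JV001, and 119, 97.7 and 45.1 CPM in sham saline. It was highest in library 3 within both CKD groups and lowest in library 3 within both sham groups, and the members were lowest in that same sham JV001 library. The log2 fold change of CKD JV001 against sham JV001 was 2.29 (SE 1.29, adjusted p = 0.254) for Hspa1b, 1.69 (adjusted p = 0.164) for Hsph1, 0.95 (adjusted p = 0.206) for Hmox1 and 0.94 (adjusted p = 0.269) for Hsp90aa1.

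Of 13 integrated stress response genes, the pathway that induces Atf3 through ATF4, 9 had positive log2 fold changes in CKD JV001 against sham JV001, with a median of 0.55. EdgeR called 0, with 5 at an unadjusted p under 0.05, and DESeq2 called 2 (Atf5 and Vldlr). The shares over all genes were 27.5% (edgeR, unadjusted) and 12.6% (DESeq2). Vldlr, a lipoprotein receptor, had -1.06 (edgeR adjusted p = 0.106) and Atf5, a factor of mitochondrial stress, 0.84 (adjusted p = 0.115). Nupr1, a stress-induced chromatin protein, had 1.41 (adjusted p = 0.160) and Asns, an ATF4 target that makes asparagine, 1.48 (adjusted p = 0.175), whereas Atf3 itself was negative. The 4 nuclear-retained RNAs, read as a sign of RNA fraction, had a median of 0.38. EdgeR called 0, with 1 at an unadjusted p under 0.05, and DESeq2 called 1 (Neat1). Neat1 had -0.94 (adjusted p = 0.096), Kcnq1ot1 0.68 (adjusted p = 0.422), Meg3 0.67 (adjusted p = 0.488) and Malat1 0.09 (adjusted p = 0.815).

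Among 11923 genes, those most like Egr3 over the 12 libraries, by Pearson r of log2 CPM as a description, were Phkg2 (r = 0.86), Thrsp (0.85), Exosc8 (0.81), Ptger4 (0.78) and Syf2 (0.78). Spearman's rho was 0.84, 0.79, 0.72, 0.78 and 0.80 for these genes in that order. Ptger4, a prostaglandin E2 receptor, had 20.5, 20.4 and 18.8 CPM in CKD JV001, 14.3, 11.1 and 28.2 CPM in CKD saline, 6.31, 5.16 and 3.42 CPM in sham JV001, and 4.34, 2.57 and 3.26 CPM in sham saline. Its CKD JV001 values lay within the range of its CKD saline values. Phkg2, a subunit of the kinase that activates glycogen phosphorylase, had 8.90 to 12.9 CPM over the 12 libraries, a narrower range than that of Egr3.

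Among the genes most like the mean of the 10 members, each scaled to its own spread, were Dusp1 (r = 0.88, rho = 0.90), Dusp6 (0.86 and 0.71), Jund (0.85 and 0.77) and Ppp1r15a (0.83 and 0.54). Dusp1, a phosphatase that switches MAPKs off and is itself an immediate early gene, had 468, 453 and 353 CPM in CKD JV001, 295, 297 and 531 CPM in CKD saline, 462, 391 and 227 CPM in sham JV001, and 258, 273 and 233 CPM in sham saline. Like the members it was highest in library 3 of CKD saline and lowest in library 3 of sham JV001. The points share libraries and depth, and no p is given.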

How the data were processed

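Isolated mouse cardiomyocytes were measured by poly(A) RNA-seq in 12 libraries, 4 groups of 3. The deposited counts are whole reads per gene, left unnormalised by the authors. Per the submitters' processing notes, fastp, HISAT2, HTSeq and the build GRCm39 were used. The sources used here give no versions, annotation or strand setting, so reads of antisense or overlapping genes cannot be separated. The authors' FPKM derive from these counts: a single gene length per gene gave the FPKM of all 12 libraries in 100% of the 10249 genes that had 50 or more reads in each library (tolerance 0.001). In units of 1e6 reads, each library held 25.2 to 37.0.

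The members and gene lists were chosen with earlier results of these data known. Differences were tested with edgeR 4.0.16 (R 4.3.3): TMM factors, filterByExpr by group (minimum count 10), 1 quasi-likelihood fit of 4 group means, and Benjamini-Hochberg adjustment over 15004 genes at a threshold of 0.05. SE is the log2 fold change over the root of F. Log2 CPM used a prior count of 2. Scripts were tested on simulated data. Named genes were all members, up to 4 per list with the smallest p in CKD JV001 against sham JV001, and the 5 genes most like Egr3 or the members' mean, with an average of at least 1 CPM, of which 1 is not reported here.

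Alternatives were a fit of only the groups compared, the Wald test of DESeq2 1.42.0, a block for the replicate number, RLE factors, genes unfiltered or filtered at 1 CPM in 3 libraries, and fits without each library in turn or without library 3 of both CKD groups. Chosen after seeing the data were the block in the CKD groups alone and summing the first and second libraries of each CKD group. Same-numbered libraries were checked for shared deviations from their group means. In CKD JV001 and CKD saline their correlations were 0.30, 0.29 and 0.49 for numbers 1 to 3. The block in the CKD groups took the numbers to pair those samples, which the labels do not state. Libraries of unlike number were not compared, so the check cannot show this pairing. In the other comparisons at least 1 correlation was below 0.1. Promoters were read from a RefSeq table of build GRCm38.p6, and 18697 of the deposited gene names matched its table of symbols.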

Additional observations from a re-analysis of the deposited data

How the results depend on the processing

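In all 4 comparisons tested, the members called stayed at 0 under every other setting run except 2, both in CKD JV001 against CKD saline: 0 to 1 with single libraries left out (1, Junb, without CKD saline library 3) and 4 with the replicate block in the CKD groups alone. The replicate block over all 12 libraries called 0. The numbers of all genes called in CKD JV001 against sham JV001 were 3 as reported, 7 with RLE factors, 5 without a filter, 12 with a stricter filter, 1768 with DESeq2, 792 with only the groups compared, 0 with the replicate block, 0 with the first CKD libraries summed, 1433 without library 3 of both CKD groups, and 0 to 1612 with single libraries left out. In CKD JV001 against CKD saline they were 0 as reported, 45 with DESeq2, 3043 without library 3 of both CKD groups, 2850 with the block in the CKD groups and 0 to 3287 with single libraries left out (3287 without CKD saline library 3). DESeq2 called 2 in sham JV001 against sham saline and 47 in CKD saline against sham saline. Several log2 fold changes changed sign, and the cause was not tested. Without library 3 of both CKD groups, Nr4a1 had 0.15 in CKD JV001 against sham JV001, Egr2 had 0.65 in CKD JV001 against CKD saline, and the interaction was 0.56 for Egr2, 0.015 for Fos and 0.016 for Klf4. With the CKD block, Egr2 had 0.13 in CKD JV001 against CKD saline. With the first and second CKD libraries summed, Klf4 had -0.040 in CKD JV001 against sham JV001 and -0.23 in CKD JV001 against CKD saline, and Atf3 had 0.010 there. With single libraries left out, CKD JV001 against CKD saline ran from -0.46 to 0.042 for Atf3, -0.66 to 0.82 for Egr2 and -0.14 to 0.87 for Klf4. CKD JV001 against sham JV001 ran from -1.03 to 0.094 for Fosb, -0.22 to 0.32 for Klf4 and -0.35 to 0.15 for Nr4a1, and without a change of sign from 0.011 to 0.54 for Egr1, -0.67 to -0.048 for Fos, 0.29 to 0.92 for Junb and 0.14 to 0.75 for Ier2. Sham JV001 against sham saline ran from -0.071 to 0.59 for Atf3, -0.36 to 0.53 for Egr2 and -0.28 to 0.066 for Nr4a1. The interaction ran from -0.77 to 0.73 for Egr2, -0.43 to 0.17 for Fos, -1.07 to 0.40 for Fosb and -0.35 to 0.24 for Ier2. The median of the members in CKD saline against sham saline was 0.43, and 0.26 to 0.59 with single libraries left out. Egr2, with 22 to 318 reads per library, is the member that depth limits most.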
